A study of Mus musculus with 2 samples.

Results

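The genes described here are 40 genes of the cell cycle and of DNA replication, among the 18194 genes that could be read from the array. They were listed by name and function, with no threshold on measured values but with earlier results of these data known. Of the 40, 11 act in S phase (the 6 Mcm genes, Pcna, Rrm1, Rrm2, Tyms and Tk1), 27 act in mitosis or in preparing it, and Stmn1 and Hmgb2 were kept apart because they also act in interphase. All but Ccnb1 had a probe set listed for that gene alone, so 39 could be read. Of these, 26 exceeded the detection limit on both arrays, 5 exceeded it on the DX5+ array only, and 8 stayed below it throughout. No member was above the limit on the DX5- array only.

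The study set expression in DX5- NK1.1+ CD3- cells beside that in DX5+ NK1.1+ CD3- cells, both sorted from liver; the donors were untreated wild-type mice of strain B6. Natural killer (NK) cells belong to the innate lymphocytes and destroy infected or transformed cells, and NK1.1 is a surface receptor by which they are recognised in this strain. DX5 is an antibody to the integrin alpha 2 chain, CD3 is the signalling complex of the T cell receptor, and both populations share the NK1.1+ CD3- gate. Each population gave 1 Affymetrix array of total RNA, with the number of mice and their age not given in the sources used here. In each group n = 1, so no value has a spread between samples, no test was made, and every fold describes these arrays. The only measure of technical spread was between probe sets of the same gene, whose log2 ratios had an SD of 0.34 over 4412 genes.

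A cell that enters division first switches on genes for licensing and copying its DNA, and later those for condensing, attaching and separating its chromosomes. The early wave is under E2F transcription factors, which RB family proteins hold in check in resting cells. The late wave is under B-MYB and FOXM1 acting with the MuvB complex, which in resting cells is part of the repressor DREAM. Most mature NK cells are at rest, and they divide while they develop and after cytokine or virus stimulation.

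Mitotic genes were lower in DX5- cells, whereas S phase genes were mostly alike on the arrays. The log2 ratio is DX5- minus DX5+, taken from intensities as deposited. The 20 detected mitotic genes had a median log2 ratio of -0.81, and 17 of them were below 0. Of the 20, 5 were above the limit on the DX5+ array only, so the filter fixed their sign below 0. The 15 above both limits had a median of -0.93, beside -0.012 over all genes above both. The 9 detected S phase genes, all above both limits, had a median of -0.10, with 6 below 0. The S phase median was thus 0.71 above that of the 20 mitotic genes, beside a median of -0.020 over all 10708 detected genes. Of all these detected genes, 5523 were below 0. In material from many cells, fewer dividing cells and less of these RNAs per cell cannot be told apart.

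Of the 31 detected members, 6 were at least 2-fold lower in DX5- cells and 0 at least 2-fold higher. Over all detected genes the shares were 5.62% for lower and 3.78% for higher values. Among the 26 members above both limits 5 were lower by that much and 0 higher, beside 5.12% and 3.73% of all genes above both. The 6 were Kif23, Stmn1, Ube2c, Ndc80, Mcm6 and Birc5, which is 19.4% of the detected members. At 1.5-fold, 13 members were lower and 1, Rrm1, was higher, beside 14.1% and 10.8% of all detected genes. Of these 13, 11 were mitotic genes, out of 20. Among S phase genes 7 of 9 were within 1.5-fold.

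Mitotic genes were dim on these arrays, and dim genes passed 2-fold more often. Of the 20 detected mitotic genes, 17 had a mean intensity below 533, the median of all detected genes. Among all detected genes below that level 7.23% were at least 2-fold lower, against 4.02% of the brighter ones, and the median log2 ratio was -0.074. Among the 17 mitotic genes 4 passed 2-fold downwards and the median was -0.93. These 17 include the 5 genes above the limit on the DX5+ array only. The 3 brighter mitotic genes, Top2a, Cdc20 and Cenpa, had a median of -0.72 and 0 past 2-fold. The 8 brighter S phase genes had a median of -0.10.

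**Figure D1:**
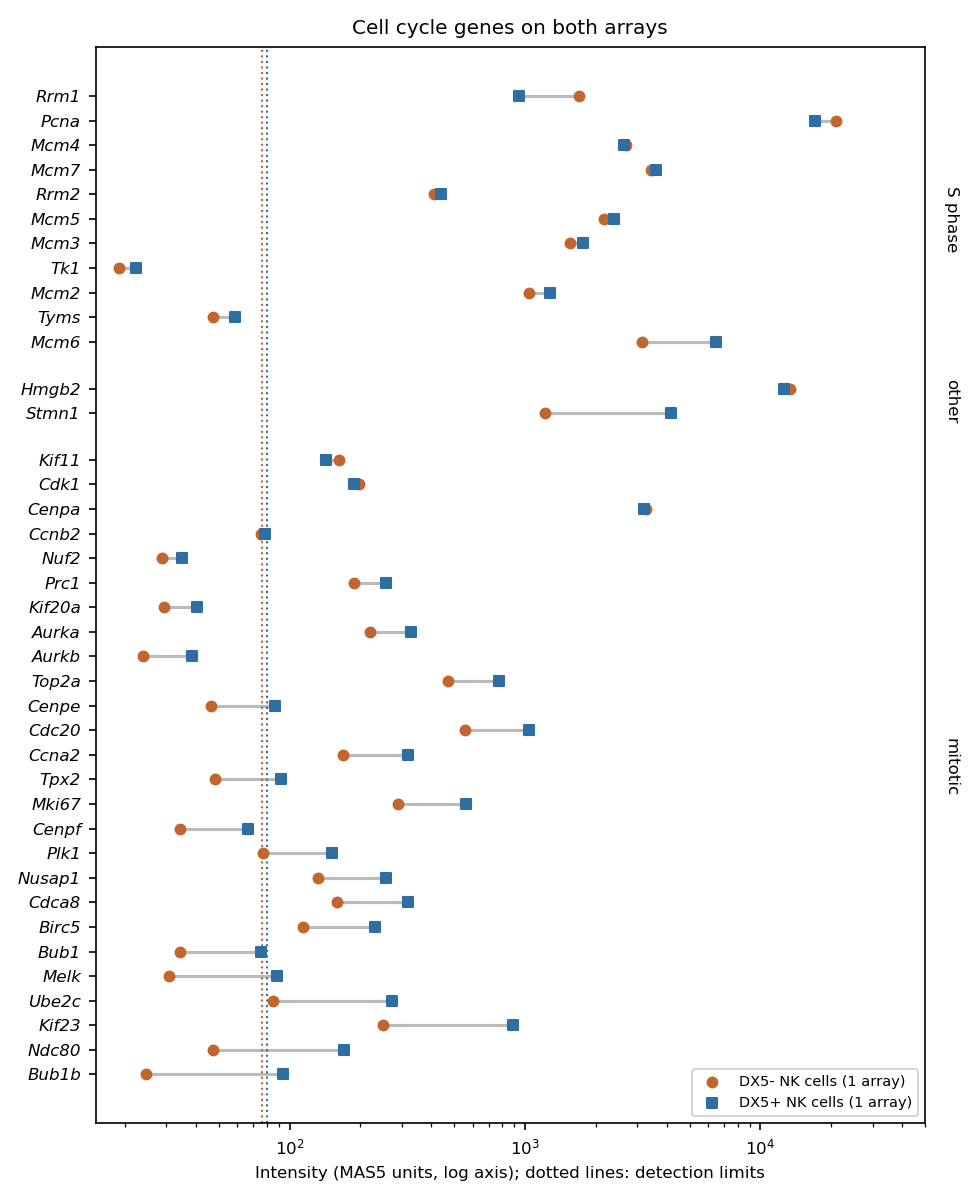
Intensity of the 39 cell cycle genes that could be read, on a log axis, with 1 circle for the DX5- array and 1 square for the DX5+ array, in the order S phase, other and mitotic genes; dotted lines mark the detection limits of 76.2 (DX5-) and 80.1 (DX5+). Squares lie to the right of circles for most mitotic genes, up to Kif23 at 249.6 against 892, while the symbols of Mcm3, Mcm4, Mcm5 and Mcm7 nearly coincide.

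The promoters of the 2 classes differed in their shares of CHR and E2F motifs, described below, and had similar shares of the CCAAT box. RefSeq promoter windows of assembly GRCm38.p6, which run from 250 bases before to 50 bases after an annotated gene start, matched 34 of the 40 genes by symbol, with 36 windows; Aurkb, Ccna2, Kif20a, Mcm4, Stmn1 and Tpx2 had no match. Both strands were searched for the CCAAT box (letters CCAAT), which NF-Y binds, for the cell cycle homology region or CHR (spelled TTTGAA or, in its other common form, TTCGAA), which MuvB complexes bind, and for an E2F motif. The E2F motif was spelled TTGGCGC in its main form, and the spellings TTCCCGC and likewise TTGCCGC and finally TTCGCGC were taken as well. A CHR was found in 18 of 24 windows of mitotic genes (75.0%), in 2 of 11 windows of S phase genes (18.2%) and in 19.2% of all 32851 windows. The order was the opposite for E2F, with 3 of 24 mitotic windows (12.5%), 7 of 11 S phase windows (63.6%) and 9.57% of all windows. A CCAAT box stood in 19 of 24 mitotic windows and 9 of 11 S phase windows, against 37.4% of all windows. Matches of different motifs overlapped in 3 of the 36 windows and in 0.597% of all. A match is a run of letters and not a shown binding site.

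The stretches below show how the motifs sit in mitotic promoters (Ube2c, Top2a, Cdc20 and Kif11) and in S phase promoters (Mcm6 and Rrm1). Each is the 100 bases before the annotated start, read 5′ to 3′ on the gene's strand, with motif matches in capitals. Positions count back from the start, so that -1 is the last base before it.
Ube2c, chr2:164769829-164769928, plus strand: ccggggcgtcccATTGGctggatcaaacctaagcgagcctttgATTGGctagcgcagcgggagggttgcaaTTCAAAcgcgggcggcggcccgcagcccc
Top2a, chr11:99024190-99024289, minus strand: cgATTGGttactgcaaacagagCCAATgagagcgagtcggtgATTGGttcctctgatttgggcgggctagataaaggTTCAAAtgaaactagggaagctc
Cdc20, chr4:118437344-118437443, minus strand: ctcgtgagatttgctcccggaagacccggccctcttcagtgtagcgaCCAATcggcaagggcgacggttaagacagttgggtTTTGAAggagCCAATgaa
Kif11, chr19:37376282-37376381, plus strand: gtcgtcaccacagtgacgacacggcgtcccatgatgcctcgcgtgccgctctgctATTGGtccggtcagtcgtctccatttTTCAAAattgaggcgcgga
Mcm6, chr1:128359706-128359805, minus strand: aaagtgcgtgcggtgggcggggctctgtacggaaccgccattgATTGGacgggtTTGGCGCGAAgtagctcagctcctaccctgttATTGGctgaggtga
Rrm1, chr7:102441595-102441694, plus strand: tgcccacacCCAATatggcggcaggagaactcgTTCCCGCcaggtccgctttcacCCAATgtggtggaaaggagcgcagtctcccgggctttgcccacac
In Ube2c the CCAAT boxes begin at -88 and -57 and the CHR at -29. Top2a has CCAAT boxes at -98, -78 and -58 and a CHR at -23, and Kif11 has 1 CCAAT box at -45 and a CHR at -19. In Mcm6 the run of 10 capitals holds E2F matches on both strands, beginning at -46 and -43, between CCAAT boxes at -57 and -14. In Rrm1 the E2F match at -67 lies between CCAAT boxes at -91 and -45.

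Genes that carry a CHR differed widely in their ratio. The 14 detected mitotic genes with a CHR had a median log2 ratio of -0.81, and the 4 without one had -0.59. Ube2c and Kif11 carry the same pair of motifs near the start, yet Ube2c was 3.19-fold lower in DX5- cells and Kif11 read 161 against 143 on the probe set used. The other 2 probe sets of Kif11 were dimmer on the DX5- array, so this contrast rests on 1 probe set of Kif11. It also rests on a DX5- value of Ube2c close to the limit. Over all 1416 detected genes with a CHR the median was -0.047 and 6.78% were at least 2-fold lower, against 5.27% of the 7303 without one. For the 6 detected S phase genes with an E2F match the median was -0.12.

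**Figure D2:**
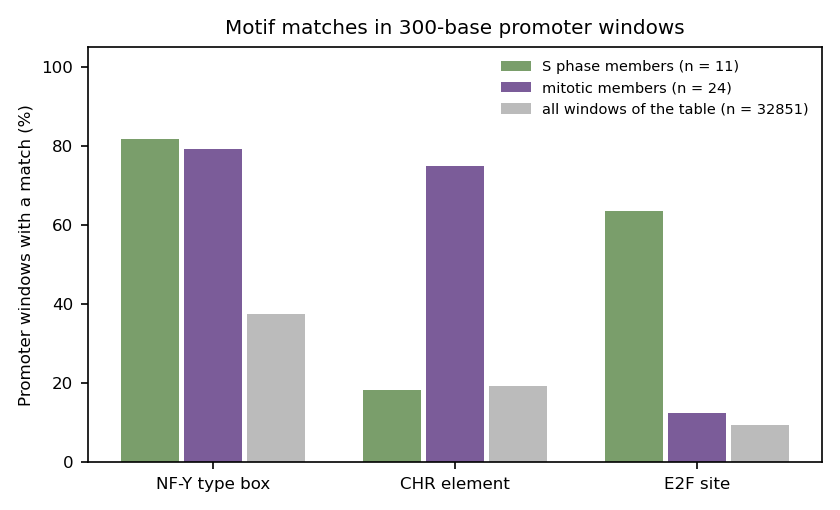
Share of promoter windows, in percent, with at least 1 match of the CCAAT box (drawn as the NF-Y type box), the CHR element and the E2F site, for 11 windows of S phase genes, 24 windows of mitotic genes and all 32851 windows. The CHR bar is tall for mitotic genes (75.0%) and the E2F bar for S phase genes (63.6%), while the CCAAT bars of both classes lie near 80% (81.8% and 79.2%).

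Among S phase genes, the 6 Mcm genes encode the subunits of the hexameric helicase that opens DNA at the replication fork. Mcm2 read 1036 (DX5-) and 1283 (DX5+), Mcm3 1546 and 1765, and Mcm4 2693 and 2642. Mcm5 read 2166 and 2384, and Mcm7 3439 and 3589. These 5 subunits differed by at most 0.31 on the log2 scale, less than the SD between probe sets. Mcm6 stood apart, with 3150.2 in the DX5- and 6502 in the DX5+ sort, a 2.06-fold lower value in the former. Its other probe set above both limits gave 2.15-fold (2504.5 against 5374.5), so the difference did not rest on 1 probe set. Mcm2 is less certain, because its other probe set read 436 against 873, a larger difference than the -0.31 on the log2 scale of the one used.

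The detected genes of nucleotide supply and of the sliding clamp were within 1.5-fold or higher in DX5- cells. Pcna, the clamp that holds DNA polymerase on its template, read 20899 in the DX5- sort against 17078 in the DX5+ sort. Rrm1, the large subunit of ribonucleotide reductase, read 1699 against 939.8, which is 1.81-fold higher in DX5- cells and the largest ratio among members in that direction. Its other probe set above both limits read 566 against 421. The mean over all its probe sets was -0.21 on the log2 scale, because it takes in 1 probe set far below both limits (3.8 against 14.2). Rrm2, the small subunit of the reductase, whose level rises in S phase, read 409 against 439. The subunits of this enzyme therefore differed in their ratio, at 0.85 and -0.10 on the log2 scale. Tyms, which makes thymidylate, read 47.1 and 58.4, and Tk1, which salvages thymidine, 18.9 and 22.3. Both were below the limit on both arrays, so no fold is given for them.

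The mitotic kinases, cyclins and their regulators had 11 members on the array, of which 8 were detected. Ube2c, the ubiquitin-conjugating enzyme of the anaphase-promoting complex, read 85.3 (DX5-) against 272 (DX5+), a 3.19-fold difference. Cdc20, an activator of that complex, read 554 against 1039.6. Its other probe set above both limits gave 392 against 431, so the 1.88-fold difference of Cdc20 depends on the probe set. Ccna2, which encodes cyclin A, read 168 against 319.8, 1.90-fold lower, and 85.1 against 150.5 on its other probe set. Plk1, a kinase of mitotic entry, read 77.4 against 151, with the DX5- value just above the limit. Aurka, a kinase of the spindle poles, read 220.3 against 329. These genes were all lower in DX5- cells, though only Ube2c passed 2-fold, with a DX5- value that was also close to the limit. With limits at the 99th percentile the log2 ratio of Ube2c was a bound of -0.95, short of 2-fold.

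Cdk1, the kinase that drives mitosis together with the cyclins, did not follow. It read 197 (DX5-) against 187 (DX5+), from 1 probe set. Ccnb2, a partner cyclin, read 75.7 and 78.4, below both limits. The spindle checkpoint gene Bub1b read 24.5 against 93.4 and the kinase gene Melk 30.7 against 88.7. Each exceeded the limit on the DX5+ array alone, which gives lower bounds of 1.23-fold and 1.16-fold. Bub1 (34.2 and 75.7) and Aurkb (23.8 and 38.6) were below both limits.

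Kinetochore and chromosomal passenger genes were detected for 5 of 7. Ndc80, which couples the kinetochore to microtubules, read 47.2 (DX5-) against 171 (DX5+) and was at least 2.24-fold lower. Birc5, or survivin, a subunit of the chromosomal passenger complex, read 114 against 231, a 2.04-fold difference. Cdca8, or borealin, of the same complex, read 159.6 against 317, which is 1.99-fold. Birc5 and Cdca8 thus had nearly the same ratio and lie on either side of the 2-fold line. Cenpa, the histone H3 variant of centromeres, read 3252 against 3210.5, and its 3 probe sets above both limits ran from -0.23 to 0.02. The kinetochore motor gene Cenpe read 46.6 against 86.3 and exceeded the limit on the DX5+ array alone, at least 1.13-fold lower. Cenpf (34.1 and 66.5) and Nuf2 (28.6 and 34.9) were below both limits.

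Genes of the spindle and of cytokinesis held the member with the largest ratio. Kif23, a kinesin of the midzone that is needed to split the daughter cells, read 249.6 (DX5-) against 892 (DX5+), 3.57-fold lower. Its other probe sets were below the limit in DX5- cells and read 49.0 against 180 and 26.9 against 83.9, so all 3 were dimmer on the DX5- array. Nusap1, which binds and stabilises spindle microtubules, read 132 against 258 and was 1.96-fold lower. Prc1, which bundles midzone microtubules and works beside Kif23, read 188 against 257. Kif11, the motor that pushes the spindle poles apart, read 161 against 143, the highest ratio among mitotic genes at 0.18. Its other probe sets exceeded the limit on the DX5+ array only and read 67.8 against 120.3 and 69.3 against 83.2, and the mean over its probe sets was -0.31, so the direction of Kif11 depends on the probe set. Tpx2, a spindle assembly factor, read 48.1 against 92.0 and was at least 1.21-fold lower, and Kif20a (29.4 and 40.4) was below both limits.

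Mki67, which encodes the proliferation marker Ki-67, read 288 (DX5-) against 561 (DX5+), 1.95-fold lower. Top2a, the topoisomerase that untangles chromosomes, read 473 against 778, which is 1.65-fold lower. These genes gave log2 ratios of -0.96 and -0.72, close to the mitotic median. Stmn1 encodes stathmin, which destabilises microtubules. It read 1213 against 4165, 3.43-fold lower, and 136 against 361 on its other probe set. Hmgb2, a chromatin protein abundant in dividing cells, read 13397 against 12573 and its 3 probe sets lay between 0.09 and 0.33. Stmn1 was therefore low in DX5- cells beside mitotic genes, and Hmgb2 was not.

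Probe sets of the same gene were compared where this could be done. For 14 members 2 or more probe sets exceeded both limits, and 10 of these had the same sign in all of them. The 4 others were Cenpa, Mcm3, Mcm7 and Rrm2, with values on both sides of 0 and none beyond 0.28. The probe sets of Stmn1, Mcm6, Ccna2 and Prc1 were all on the negative side, and those of Rrm1, Mcm4 and Hmgb2 on the positive side. The other 12 members above both limits, Mki67, Birc5, Ube2c and Kif23 among them, rest on 1 probe set at that level.

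**Figure D3:**
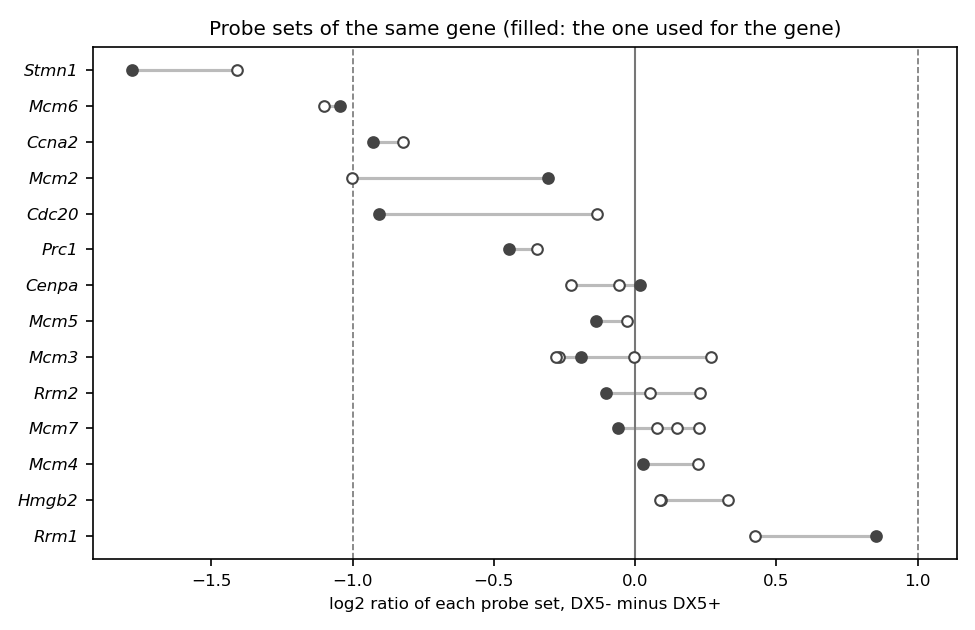
Log2 ratio (DX5- minus DX5+) of each probe set above both detection limits, for the 14 members that have 2 or more; filled points are the probe sets used for the gene, and dashed lines mark 2-fold. Stmn1 and Mcm6 have all points at or beyond -1.05, Rrm1 has its points at 0.43 and 0.85, and Mcm2 and Cdc20 have the widest spread.

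Further genes of the cell cycle, from 5 lists written for this purpose, were read next. The lists were written with earlier results of these data known, so they are no independent check. Among 40 detected genes of mitotic entry, spindle and cytokinesis, 9 passed 2-fold downwards in DX5- cells (22.5%) and 0 upwards. The shares over all detected genes were 5.62% and 3.78%. The median of the 40 was -0.44, and 37 were below 0, beside 5523 of all 10708 detected genes. Ncaph, a condensin subunit, read 399 against 1219.6 (3.05-fold). Cdc25b, a phosphatase that activates Cdk1, read 141 against 416.5 (2.96-fold). Kif4, a chromosome-bound kinesin, read 76.1 against 183 and was at least 2.41-fold lower. Racgap1, the partner of Kif23 in centralspindlin, read 367 against 849 (2.31-fold), and 207 against 744 on its other detected probe set. Both subunits of centralspindlin were thus at least 2-fold lower. Condensin differed in this respect, since Smc2, Smc4 and Ncapd2 had log2 ratios of -0.15, -0.09 and -0.22 beside -1.61 for Ncaph; these 3 subunits were chosen after their values were known.

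Replication genes outside the 40 had medians on both sides of 0. Of 17 detected genes of licensing and initiation, 2 passed 2-fold downwards (11.8%) and 0 upwards, beside 5.62% and 3.78% of all detected genes. The median of these 17 was 0.12 and the mean -0.14. Gins2 was at least 2.66-fold lower (35.3 against 203), although its other probe set read 89.1 against 40.9. Cdc7, a kinase that fires origins, was 2.29-fold lower (245 against 562), and its other probe set read 134 against 113. Both calls therefore depend on the probe set. The licensing factor Cdt1, picked with its values in view, had 6816 against 5907. Of 26 detected genes of the replication fork and nucleotide supply, 2 passed 2-fold downwards (7.69%) and 0 upwards (median -0.24). The downward share was near the 5.62% of all detected genes. Prim2, a primase subunit, was 3.51-fold lower (380.4 against 1334) and 2.99-fold lower on its other probe set above both limits. Its partner Prim1, also picked with its values in view, read 541 against 651.5. Brca1, which acts in repair of broken forks, was 2.30-fold lower (93.8 against 215).

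Few genes that decide entry into the cycle, or that restrain it, passed 2-fold. Of 18 detected genes of G1 and S entry, 1 passed 2-fold upwards and 0 downwards (median -0.17), beside 3.78% and 5.62% of all detected genes. That gene was Cdk2, the partner of cyclins E and A, with 1269.5 against 319.6 (3.97-fold) on the single probe set above the limits. At 1.5-fold, 5 of the 18 genes were lower in DX5- cells and 1, Cdk2, was higher, beside 14.1% and 10.8% of all detected genes. The D-type cyclin gene Ccnd2 read 6788 against 5421 and Ccnd3 1845 against 1931. The other probe sets of Ccnd3 above both limits read 820.9 against 1727.4 and 86.1 against 149, so its ratio depends on the probe set. Cdk4, a kinase of the D-type cyclins, read 632 against 527, and Cdk6 635 against 1254. Cdk6 was 1.98-fold lower and 2.33-fold lower on its other probe set above both limits. Myc read 4184 against 3094. E2f1, a factor of the S phase wave, read 87.6 against 126.5. Of the related genes E2f2 and E2f3, picked with their values in view, E2f3 was 1.84-fold lower in DX5- cells. E2f2 exceeded the limit on the DX5+ array only (44.9 against 150.4), at least 1.98-fold lower. Foxm1 and Mybl2, the genes of FOXM1 and B-MYB, were picked with their values in view. Foxm1 exceeded the limit on the DX5- array only (92.4 against 55.1), at least 1.15-fold higher. Another probe set of Foxm1 read 267.9 against 18.3, and its remaining probe sets were below both limits. Mybl2 exceeded the limit on the DX5+ array only (70.9 against 87.6), at least 1.15-fold lower.

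Of 22 detected inhibitors and quiescence genes, 2 passed 2-fold upwards and 0 downwards (median 0.11). Gadd45b, a stress-induced gene, read 15649 against 7273 (2.15-fold), and its 3 probe sets lay between 0.99 and 1.11. Rb1, the retinoblastoma gene that restrains E2F, read 1851 against 903 (2.05-fold), with a log2 ratio of 0.56 on its other probe set. Cdkn1a, which encodes the inhibitor p21, read 10238 against 5676, 1.80-fold higher, and 7057 against 4020.1 on its other probe set. Cdkn1b, which encodes p27, read 3755 against 4279 and 338 against 282.3 on its other probe set, so its direction depends on the probe set. Of the 22 genes, 14 were above 0 and 8 below. At 1.5-fold, 5 of them were higher in DX5- cells and 0 lower, beside 10.8% and 14.1% of all detected genes. Over all 5 lists, 13 of 123 detected genes passed 2-fold downwards (10.6%) and 3 upwards, beside 5.62% and 3.78% of all detected genes. Among the 107 of them above both limits, 10 passed downwards and 3 upwards, beside 5.12% and 3.73% of all genes above both.

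**Figure D4:**
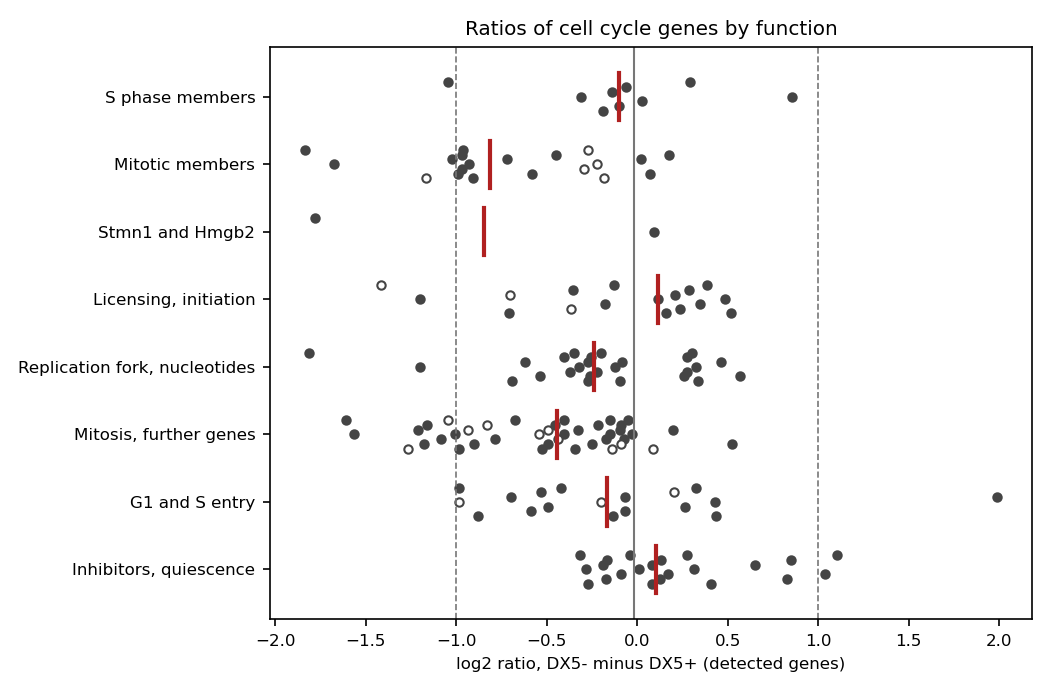
Log2 ratio (DX5- minus DX5+) of each detected gene in the member classes and in the 5 further lists; open points are lower bounds of genes above the limit on 1 array, red bars are medians, the grey line is the median of all detected genes and dashed lines mark 2-fold. Mitotic members (median -0.81) and further mitosis genes (-0.44) lie to the left, S phase members (-0.10) and inhibitors (0.11) around the grey line, and Cdk2 alone near 2.

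Both arrays carried NK cell RNA, with 12 of 12 NK markers above both limits. Of these 12, 2 were at least 2-fold lower in DX5- cells and 0 higher, beside 5.62% and 3.78% of all detected genes. They were Eomes (1990.7 against 16107.4, 8.09-fold) and Prf1 (3108.1 against 8978.2, 2.89-fold). T cell markers were mostly higher in DX5- cells, with 5 of 8 detected at least 2-fold higher. Cd8b1 went the other way, at 29.6 against 104.2 and at least 1.37-fold lower. The summed intensity over 9 T cell genes was 20561 against 3500. Cd3g, higher in DX5- cells in spite of the CD3- label, alone read 14036 against 1072. Markers of platelets (7 of 8 at least 2-fold lower; sum 1310 against 5987), macrophages (4 of 5; 1392 against 5839) and neutrophils (3 of 5; 3736 against 9513) moved in the same direction as the mitotic genes. Gp6 of the platelet list went the other way, with 157.2 against 104.5. C1qa, C1qb, C1qc, Clec4f, Timd4, Cd163, Marco and Vsig4 of the macrophage list were below both limits. Of 6 markers of blood progenitors, 3 were detected, with a median log2 ratio of -0.77 and a summed intensity over all 6 of 1994 against 2180. Kit read 1738.5 against 1738.9, Gata2 94.2 against 161.7 and Flt3 70.6 against 129.8, at least 1.70-fold lower, while Cd34, Mpo and Elane were below both limits. Of 7 erythroid markers on the array, 3 were detected and none passed 2-fold (sum 2782 against 2867): Alas2 read 390.1 against 293.7, Tfrc 2162 against 2354 and Slc4a1 115 against 54.9. Hba-a1, Klf1, Epor and Ermap were below both limits. The part of other cells in the mitotic ratios was not tested.

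The direction of the mitotic genes was the same under each array scaling that was run, with medians from -0.81 to -0.60. Scaling to the spike-in controls moved the median of all detected genes from -0.020 to 0.19, the share of higher genes among those past 2-fold from 40.2% to 64.3%, and the S phase median to 0.12. It left 3 members at least 2-fold lower (Kif23, Ube2c and Stmn1) and put Rrm1 past 2-fold upwards. Because this scaling adds 1 constant to every log2 ratio, the difference between S phase and mitotic medians cannot change with it.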

How the data were processed

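Each array gave 1 deposited intensity per probe set for 45101 probe sets. The authors made these linear intensities with the MAS5 algorithm, according to the submitters' processing notes, which name no version. MAS5 scales each array by 1 factor, so a difference in total RNA per cell is not seen. The mean without the lowest and highest 2% was 500.0 on both arrays.

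Probe sets were named from a platform annotation table: 34958 had 1 gene symbol, 932 several and 9211 none here. Symbols were updated by gene identifier through RefSeq (34754 matched). Where a gene had several probe sets, the brightest by mean log2 over both arrays was used. The detection limit was the 95th percentile of 148 probe sets for receptors of smell, taste and pheromones, opsins, lens crystallins and keratin-associated proteins: 76.2 (DX5-) and 80.1 (DX5+). Probe sets of 3 Crybg genes, which are not lens crystallins, were left out of these after members' values under a limit that included them had been seen. A value below its limit was set to the limit if the other array was above, which makes the fold a bound ("at least"); genes below both were left out. No offset was added. The arrays' number, 1 per group, limits the precision.

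Members and lists were chosen with earlier results of these data known. Named genes are all members, up to 4 genes per list and direction with the largest ratio past 2-fold, and 8 genes of G1 control. Further genes of these lists, picked with their values in view, are marked as such where they are named. Up to 2 marker genes per cell type were to be named; marker genes below the limits are named beyond that. Alternatives covered the limit, the probe set choice, 4 scalings, the fold threshold and the list definition. Ratio code was tested on simulated data. Python 3.11.15, pandas 2.3.3 and numpy 2.4.6 were used.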

Additional observations from a re-analysis of the deposited data

How the results depend on the processing

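With 1 array per group no replicate could be left out. No paired analysis was possible because each group has 1 array and no test was made. The mitotic median, -0.81 as reported, stayed below 0 under every alternative run. It was -0.72 for limits at the 99th percentile and at the array median and also without _x_at and _s_at probe sets, -0.93 with no limit and with members above both limits only, and -0.60 with spike-in scaling. The S phase median, -0.10 as reported, turned to 0.052 without _x_at and _s_at probe sets and to 0.12 with spike-in scaling, so it has no stable sign; the cause was not tested. The difference between these medians ran from 0.61 to 0.83, the latter with members above both limits only.

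The median over all members, -0.31 as reported, was -0.40 for a limit at the array median, -0.70 with no limit, -0.43 with the mean over probe sets, -0.090 with spike-in scaling and -0.51 with members above both limits only. It was -0.58 when 3 Crybg probe sets were counted among those that set the limit, an alternative added after seeing the data, as was the choice to leave them out. The count of members at least 2-fold lower, 6 as reported, was 3 for a limit at the 99th percentile, 3 with spike-in scaling and 13 at 1.5-fold; the count higher went from 0 to 1 with spike-in scaling and at 1.5-fold. Over all detected genes, spike-in scaling gave 393 lower and 708 higher genes against 602 and 405 as deposited, and no limit gave 2838 and 1888. Of 294 alternative values of single members, 278 moved by less than the SD between probe sets, 16 by more, and 0 of the members past 2-fold changed sign. Many of the 294 could hardly move. A changed limit leaves a gene that stays above both limits as it was. Median centring and spike-in scaling shift ratios by a constant smaller than that SD. Members that a changed setting left undetected are not counted, so these counts say little about how firm the ratios are. Signs changed in 15 of the 294 values, of Mcm3, Mcm4, Mcm5, Mcm7, Rrm1, Rrm2, Kif11 and Cenpa; Rrm1 and Kif11 turned to -0.21 and -0.31 with the mean over probe sets. Intensities near the limits, such as Plk1 and Ube2c in DX5- cells, set how small a ratio of a dim gene can be read.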
